A study of Homo sapiens with 6 samples.

Results

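Genomic imprinting leaves a gene active from the maternal or the paternal copy alone, through DNA methylation marks that are set in the germ line and kept through cell divisions. Imprinted genes lie in clusters that share control regions, and many of them regulate growth of the fetus and placenta. Several are silenced, or lose their imprint, in cancers. PRMT5 with its cofactor MEP50 methylates arginines in histones and in splicing proteins. The genes described here are 10 imprinted genes out of 63299 in the count table: PEG3, ZIM2, PEG10, MEST, NDN, MEG3, H19, IGF2, GRB10 and PLAGL1. PEG3 was selected on 2 measured values, its very high count and its fall in MEP50 KD, so its values are a description and carry no test. The other 9 are known imprinted genes, and they were chosen with earlier results of these data known. Read counts do not separate the parental copies, so imprinting itself was not measured.

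RNA was sequenced from LNCaP cells, a human prostate cancer line. There were 3 libraries of MEP50 knockdown cells given doxycycline (MEP50 KD) and 3 of the cells without doxycycline and without knockdown (No KD), 6 in all. The knockdown used a short hairpin RNA, and no library had doxycycline alone, so effects of the drug and of the knockdown cannot be told apart. The libraries held 18568002 to 36001219 counts on genes in MEP50 KD and 27509105 to 36234784 in No KD. WDR77, the gene of MEP50, had 13.9 ± 1.16 CPM (counts scaled to a library total of 1000000) in MEP50 KD and 44.4 ± 6.73 CPM in No KD (SD, n = 3 libraries each; log2 fold change -1.67, adjusted p 0.00131, edgeR quasi-likelihood test). The luminal epithelial keratin KRT8 had 274 ± 7.71 CPM in MEP50 KD and 326 ± 25.3 CPM in No KD (adjusted p 0.224, edgeR). Its partner KRT18 had 272 ± 10.7 CPM in MEP50 KD and 409 ± 5.12 CPM in No KD, and was called lower (log2 fold change -0.59, adjusted p 0.0168, edgeR). Larger falls were called for the prostate kallikrein genes KLK3, with 957 ± 178 CPM in MEP50 KD and 2664 ± 318 CPM in No KD (log2 fold change -1.48, adjusted p 0.0027), and KLK2, with 211 ± 52.9 CPM in MEP50 KD and 427 ± 71.2 CPM in No KD (-1.01, adjusted p 0.0205). The protease gene TMPRSS2 was called lower too, with 358 ± 99.7 CPM in MEP50 KD and 791 ± 273 CPM in No KD (-1.14, adjusted p 0.0437). Summed levels of 5 immune markers were 1.01 to 1.82 CPM in MEP50 KD and 0.933 to 1.54 CPM in No KD, with PTPRC at 0 or 1 read in each library and LYZ called higher in MEP50 KD (18, 41 and 14 reads in MEP50 KD against 3, 4 and 5 in No KD). Those of 6 fibroblast markers were 10.98 to 16.4 CPM in MEP50 KD and 7.37 to 14.7 CPM in No KD. The 4 endothelial markers summed to 10.5 to 26.0 CPM in MEP50 KD and 18.6 to 39.0 CPM in No KD, and the 5 neuroendocrine markers to 2.02 to 2.33 CPM in MEP50 KD and 2.87 to 3.30 CPM in No KD. The part of these marker differences in the results below was not tested. In bulk RNA, fewer cells with a transcript and less transcript per cell cannot be told apart.

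The members covered a very wide range of levels in these cells. On the scale of CPM per kilobase of exon (RPKM), the MEP50 KD order was PEG3 (396 ± 146), GRB10 (71.9 ± 17.1), NDN (25.3 ± 2.48), MEST (6.08 ± 1.05), ZIM2 (1.42 ± 0.571), PLAGL1 (0.217 ± 0.0248) and PEG10 (0.162 ± 0.106). In No KD the levels were 959 ± 59.4 for PEG3, 46.5 ± 15.7 for GRB10, 17.2 ± 1.124 for NDN, 11.6 ± 2.40 for MEST, 2.90 ± 0.0926 for ZIM2, 0.198 ± 0.0530 for PEG10 and 0.173 ± 0.0258 for PLAGL1 (SD, n = 3). PEG10 and PLAGL1 lay within their spread of each other in both groups, and the higher neighbours in the order were separated by more than it. IGF2, H19 and MEG3 were at or below 0.0380 RPKM on average in either group. Those 3 had too few reads for the test, which leaves 7 members with enough, PEG3 included.

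Of the 6 tested members other than PEG3, 1 was called lower (MEST) and 1 higher (NDN) in MEP50 KD at an adjusted p under 0.05 (edgeR). Over all 21101 tested genes 4.88% were called lower and 2.72% higher, 7.6% in either direction. Libraries with the same replicate number deviated together, so a second fit blocked on the replicate pairs stands beside each result whose call it altered. In that fit 2 of the 6 were lower (MEST, ZIM2) and 2 higher (NDN, GRB10), against 14.9% lower, 11.2% higher and 26.1% in either direction of all genes. The libraries of the groups did not overlap for 2 of the 6 that were lower (ZIM2, MEST) and 1 that was higher (NDN), against 17% lower, 13.4% higher and 30.4% in either direction of all genes. The median log2 fold change was 0.01 over these 6 members and 0.00 over all tested genes.

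**Figure D1:**
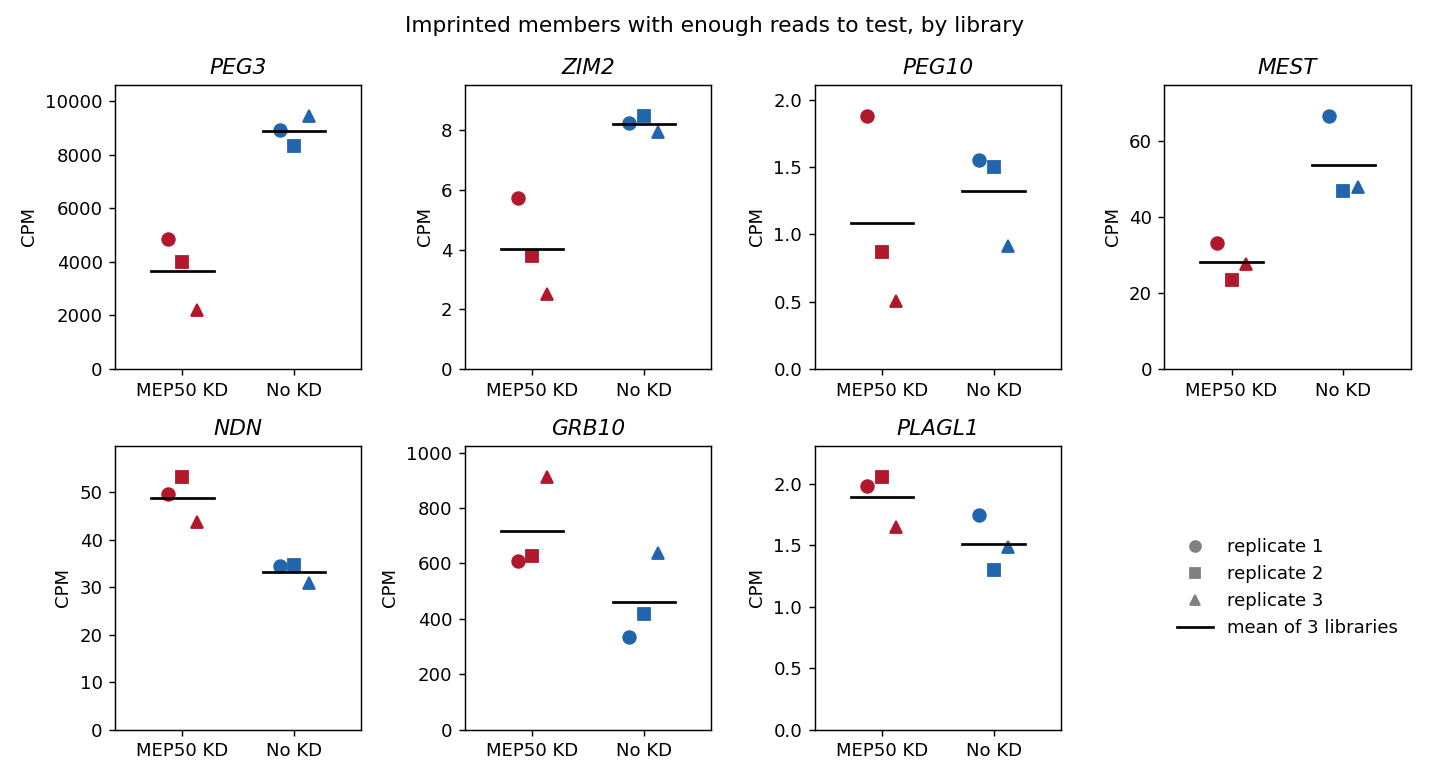
Level in CPM (y axes from 0, 1 scale per gene) of the 7 members with enough reads, in MEP50 KD (red, left) and No KD (blue, right); points are libraries, shaped by replicate number, and bars are means of 3. The groups do not overlap for PEG3, ZIM2, MEST and NDN, and do for PEG10, GRB10 and PLAGL1.

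PEG3 encodes a large protein with Krüppel-type zinc fingers that is made from the paternal copy and represses transcription. The gene (ENSG00000198300.12) spans bases 56810083 to 56840728 of chromosome 19, on the minus strand of hg38. Its levels were 4851, 3978 and 2198 CPM in MEP50 KD replicates 1, 2 and 3, against 8916, 8332 and 9434 CPM in the No KD replicates. Every MEP50 KD library was below every No KD library, and MEP50 KD replicate 3 was the lowest. PEG3 took 0.488%, 0.409% and 0.232% of all counts in MEP50 KD replicates 1 to 3 and 0.835%, 0.836% and 0.912% in No KD. It ranked 5th, 6th and 10th of all genes by count in MEP50 KD and 2nd, 3rd and 3rd in No KD. By reads per exon length it ranked 36, 35 and 85 in MEP50 KD, against 10, 12 and 14 in No KD. The log2 fold change was -1.27, a 2.42-fold lower level in MEP50 KD. Within the replicate pairs the log2 differences (of CPM + 0.1) were -0.88, -1.07 and -2.10, the third being the largest. Without MEP50 KD replicate 3 the log2 fold change was -1.01, the smallest among the fits that left out 1 library.

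**Figure D2:**
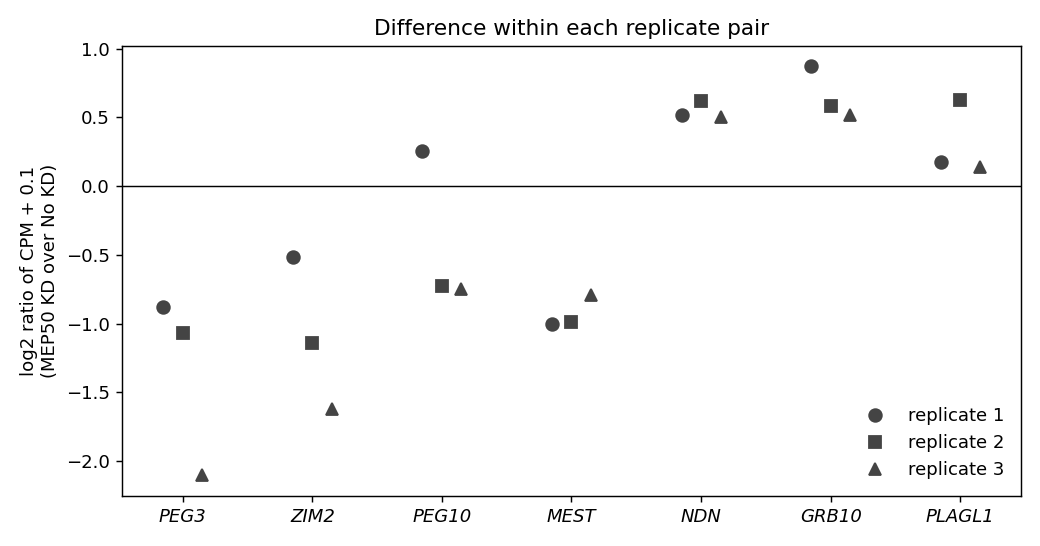
Log2 ratio of CPM + 0.1 of MEP50 KD over No KD (y axis) within replicate pairs 1, 2 and 3 (point shapes), for the 7 members with enough reads. PEG3, ZIM2 and MEST lie below 0 and NDN, GRB10 and PLAGL1 above 0 in all 3 pairs, while PEG10 takes both signs.

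ZIM2, another zinc finger gene, is joined to PEG3 by its start. ZIM2 (ENSG00000269699.5) runs on the same strand from 56840729, next to the start of PEG3, down to 56774552, and 1037 of its 2834 exon bases (36.6%) are also exon of PEG3. It had 5.73, 3.78 and 2.52 CPM in MEP50 KD replicates 1 to 3, from 107, 140 and 55 reads. In No KD it had 8.23, 8.46 and 7.94 CPM, from 212, 254 and 278 reads. The groups did not overlap, and MEP50 KD replicate 3 was again the lowest library. The log2 fold change was -1.04 (SE 0.28), which missed the threshold (adjusted p 0.0549, edgeR) and passed it with the pairs as a block (0.00195). It was also called without MEP50 KD replicate 1 (-1.37, adjusted p 0.0202), in DESeq2 (0.00595), in limma-voom (0.0346) and with no filter on low counts (0.00132). In the other 5 fits that left out 1 library it was not called. ZIM2 had 1.18, 0.951 and 1.15 reads per 1000 reads of PEG3 in MEP50 KD and 0.923, 1.01 and 0.841 in No KD. Whether reads of PEG3 enter the ZIM2 counts was not tested, because the sources used here do not state how reads on shared exons were counted.

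Around PEG3, 2 noncoding RNAs of the same cluster were lower as well. MIMT1, a long noncoding RNA (ENSG00000268654.1), starts 174 bases from the start of PEG3 on the other strand. It had 1.93, 3.62 and 2.20 CPM in MEP50 KD replicates 1 to 3, against 6.95, 5.70 and 7.19 CPM in No KD. MIMT1 fell by a log2 of 1.33 (SE 0.27, adjusted p 0.0211, edgeR). ZIM2-AS1, an antisense RNA that shares 24 exon bases with ZIM2, had 1.77, 1.49 and 1.19 CPM in MEP50 KD and 4.19, 3.36 and 2.63 CPM in No KD. It fell by a log2 of 1.19 (SE 0.27, adjusted p 0.0336). Neither gene's groups overlapped. The MIMT1 call was lost without MEP50 KD replicate 3 (adjusted p 0.0725), No KD replicate 1 (0.0602) or No KD replicate 3 (0.0663). That of ZIM2-AS1 was lost without MEP50 KD replicate 2 (0.114) or 3 (0.106) or No KD replicate 1 (0.107) or 2 (0.0557).

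Of 61 genes within 500 kb of PEG3, 40 had enough reads. Of the 40, MIMT1 and ZIM2-AS1 were called lower (5%) and 0 higher in edgeR, against 4.88% lower and 2.72% higher of all tested genes. At an unadjusted p under 0.05 9 were lower and 2 higher (3025 and 2194 of all 21101 genes). DESeq2 called 4 lower and 0 higher (1440 and 898 of all genes), and limma-voom 3 lower and 0 higher (1050 and 593). The block fit called 9 lower and 0 higher, against 14.9% lower and 11.2% higher of all genes. The median log2 fold change over the 40 was -0.06. ZNF71, at 184 kb, had a log2 fold change of 0.14 (adjusted p 0.677), and ZNF264, an imprinted gene at 351 kb on the other side, one of -0.24 (adjusted p 0.251; SE 0.12 for ZNF264 and 0.19 for ZNF71). ZNF542P had 68.9 ± 10.4 CPM in MEP50 KD and 96.9 ± 12.2 CPM in No KD (-0.49, SE 0.15, adjusted p 0.0796, and 0.0023 with the block). ZNF460 had 197 ± 14.9 CPM in MEP50 KD and 253 ± 31.7 CPM in No KD (-0.36, SE 0.13, adjusted p 0.134, and 0.0193 with the block). USP29, a deubiquitinase gene of the same imprinted cluster in mouse, had 1, 6 and 3 reads in MEP50 KD and 0, 4 and 4 in No KD. ZIM3 had 1, 0 and 0 reads in MEP50 KD and 3, 3 and 1 in No KD. The third nearest gene to PEG3, AC004792.1, was among 7 genes of the window with 0 reads in every library.

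**Figure D3:**
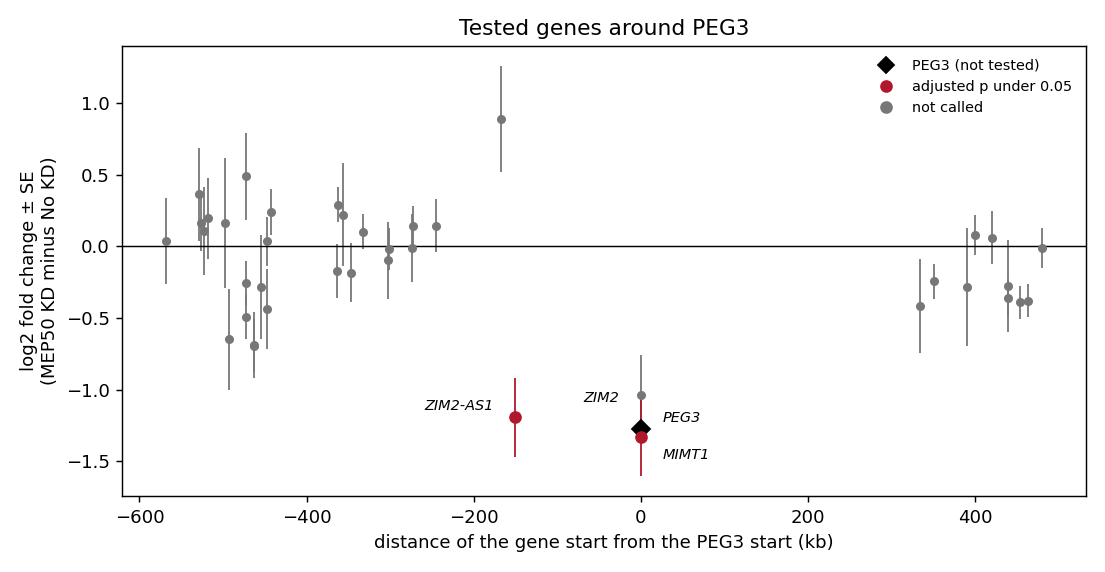
Log2 fold change of MEP50 KD minus No KD (y axis, bars are SE) against the distance of each gene's start from the PEG3 start in kb (x axis), for PEG3 and the 40 tested genes within 500 kb of it. PEG3, ZIM2, MIMT1 and ZIM2-AS1 lie between -1.33 and -1.04, and the highest point is at 0.89.

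MEST, a paternally expressed gene for an enzyme of the alpha/beta hydrolase fold that promotes growth in mouse, was the other member that fell. MEST (ENSG00000106484.14, chromosome 7, bases 130486171 to 130506296) had 33.2, 23.5 and 27.7 CPM in MEP50 KD, from 620, 871 and 604 reads. It had 66.5, 46.8 and 47.8 CPM in No KD, from 1715, 1406 and 1676 reads. The groups did not overlap, and No KD replicate 1 was the highest library. MEST fell by a log2 of 0.94 (SE 0.19, adjusted p 0.0209, edgeR), to a level 1.91-fold lower. The 3 pairs had log2 differences of -1.001, -0.99 and -0.79. The call was lost without MEP50 KD replicate 2 (adjusted p 0.0930) or 3 (0.0689) or No KD replicate 1 (0.0624). Its antisense partner MESTIT1, which shares 484 exon bases with it, was not called (log2 fold change -0.19, SE 0.19, adjusted p 0.584). COPG2, a coat protein gene that meets the end of MEST from the other strand, was not called either (0.10, SE 0.12, adjusted p 0.662). Reads from MEST and its antisense genes cannot be told apart where they share exons, since the strand setting of the counting is not given in the sources used here.

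NDN rose. It encodes necdin, a MAGE family protein that restrains growth and is lost in Prader-Willi syndrome, and it is a gene with 1 exon (ENSG00000182636.5, chromosome 15, bases 23685400 to 23687330) that overlaps no other gene in the table. It had 49.5, 53.1 and 43.6 CPM in MEP50 KD, against 34.5, 34.6 and 30.8 CPM in No KD. The groups did not overlap, and replicate 3 was the lowest of each group. NDN rose by a log2 of 0.55 (SE 0.13, adjusted p 0.0411, edgeR), which is 1.47-fold. The differences within pairs were 0.52, 0.62 and 0.50. Each fit that left out 1 library missed the threshold, with adjusted p from 0.0590 (No KD replicate 2) to 0.157 (MEP50 KD replicate 2) and log2 fold changes from 0.49 to 0.62. With the pairs as a block it was 0.00223.

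The genes that share the imprinted region of chromosome 15 with NDN included 1 lower and 0 higher calls among 8 tested, beside 4.88% lower and 2.72% higher of all tested genes. PWAR5, a noncoding RNA of this region, had 103, 105 and 89.2 CPM in MEP50 KD and 151, 134 and 139 CPM in No KD, and fell by a log2 of 0.51 (SE 0.12, adjusted p 0.0370, edgeR). Its call was lost without any library other than No KD replicate 2 (adjusted p from 0.0715 to 0.142). SNRPN, which encodes a protein of the splicing snRNPs, had 80.7 ± 15.3 CPM in MEP50 KD and 113 ± 21.7 CPM in No KD (log2 fold change -0.49, adjusted p 0.14). ATP10A, a lipid flippase gene, had 9.60 ± 2.99 CPM in MEP50 KD and 16.6 ± 3.67 CPM in No KD (-0.78, adjusted p 0.102). Both were called lower with the pairs as a block (0.00272 and 0.00101). Not called in either fit were the ubiquitin ligase gene UBE3A (-0.08), the host transcript SNHG14 (-0.06), MKRN3 (-0.16), PWAR6 (0.08) and SNURF (0.02). SNURF lies within SNRPN, PWAR5 and PWAR6 lie within the span of SNHG14, and SNHG14 runs over UBE3A, so their counts may share reads. MAGEL2, the gene closest to NDN in kind and place, had 0, 1 and 0 reads in MEP50 KD and 0 in each No KD library.

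GRB10 was the second most abundant member and was higher in MEP50 KD within every replicate pair. It encodes an adaptor that binds the insulin and IGF1 receptors and dampens their signal, and its imprint differs between tissues. GRB10 (ENSG00000106070.17, chromosome 7, bases 50590063 to 50793462) had 610, 625 and 911 CPM in MEP50 KD replicates 1 to 3. It had 333, 416 and 636 CPM in No KD replicates 1 to 3. The groups overlapped, since No KD replicate 3 exceeded MEP50 KD replicates 1 and 2, and replicate 3 was the highest of each group. The log2 fold change was 0.63 (SE 0.25), which was not called (adjusted p 0.158, edgeR) and was with the pairs as a block (0.66, adjusted p 0.00113). The pairs differed by 0.87, 0.59 and 0.52. DDC, the dopa decarboxylase gene next to GRB10, had 145 ± 56.2 CPM in MEP50 KD and 152 ± 86.4 CPM in No KD and was not called (log2 fold change -0.06, adjusted p 0.942). Without No KD replicate 3 that value for DDC was 0.50, and without MEP50 KD replicate 3 it was -0.40, both without a call.

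Promoter sequences, from 250 bases before to 50 after the start, were matched for 6 of the members in the table used here, taken from RefSeq (GRCh38.p14). Those of the 3 matched members called in either fit are printed with all CpG pairs in capitals, since imprints are carried by methylation at such pairs. That table lists 5 starts each for MEST and GRB10, of which the most downstream is shown for MEST and the most upstream for GRB10. They are chr15:23687256-23687555 (minus strand) for NDN, chr7:50793404-50793703 (minus strand) for GRB10 and chr7:130491835-130492134 (plus strand) for MEST.
NDN: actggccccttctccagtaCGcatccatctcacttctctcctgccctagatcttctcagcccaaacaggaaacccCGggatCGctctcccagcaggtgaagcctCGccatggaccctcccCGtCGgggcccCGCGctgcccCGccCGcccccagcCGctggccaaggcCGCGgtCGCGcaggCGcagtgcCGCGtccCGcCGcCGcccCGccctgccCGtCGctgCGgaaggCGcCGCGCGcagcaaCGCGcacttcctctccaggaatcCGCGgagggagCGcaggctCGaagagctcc
GRB10: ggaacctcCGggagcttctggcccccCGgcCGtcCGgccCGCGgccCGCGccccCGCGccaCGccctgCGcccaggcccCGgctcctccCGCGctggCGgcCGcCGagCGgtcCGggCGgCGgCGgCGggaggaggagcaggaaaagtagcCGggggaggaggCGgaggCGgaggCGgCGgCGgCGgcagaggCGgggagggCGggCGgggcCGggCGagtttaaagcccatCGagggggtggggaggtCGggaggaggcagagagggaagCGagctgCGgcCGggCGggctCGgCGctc
MEST: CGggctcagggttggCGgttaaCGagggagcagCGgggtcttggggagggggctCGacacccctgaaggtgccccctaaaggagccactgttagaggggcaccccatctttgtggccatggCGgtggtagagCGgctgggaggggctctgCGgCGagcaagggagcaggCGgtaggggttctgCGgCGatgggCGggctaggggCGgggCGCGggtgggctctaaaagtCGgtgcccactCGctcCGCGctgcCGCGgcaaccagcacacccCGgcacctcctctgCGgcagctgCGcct
NDN has 35 CpG pairs in this window, more than 85.9% of the 35116 promoters in that table, GRB10 has 44 (more than 95.8%) and MEST has 25 (more than 68.0%). The other starts hold 3 to 49 CpG pairs for GRB10 and 13 to 22 for MEST. Counts per gene do not show which start was used, and methylation was not measured. Whether a printed window lies in the region that carries the gene's imprint was not examined.

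IGF2, H19 and MEG3 had very few reads. IGF2, the paternally expressed growth factor, had 4, 10 and 5 reads in MEP50 KD and 1, 2 and 7 in No KD, or 0.214, 0.270 and 0.229 CPM against 0.0388, 0.0666 and 0.200 CPM in No KD. The lowest MEP50 KD value was just above the highest No KD value, and 3 reads correspond to 0.0828 to 0.162 CPM in these libraries. H19, the maternally expressed noncoding RNA beside IGF2, had 0, 0 and 1 reads in MEP50 KD and 1 in each No KD library. MEG3, a maternally expressed noncoding RNA, had 0, 1 and 2 reads in MEP50 KD and 0, 1 and 0 in No KD. A count of 0 allows up to 3 reads, for counting error only. A difference of that size in H19 or MEG3 was not detectable at this depth, and neither gene exceeded 2 reads in any library. DLK1, the paternally expressed partner of MEG3, had 1 read in all, and MEG8 had 0. DIO3, a thyroid hormone deiodinase gene further along that cluster, had 3, 31 and 66 reads in MEP50 KD and 5, 30 and 60 in No KD, and was not called (log2 fold change 0.43, SE 0.85, adjusted p 0.797, edgeR). In the region that adjoins IGF2 on chromosome 11, the noncoding RNA KCNQ1OT1 had 99.5 ± 11.99 CPM in MEP50 KD and 87.0 ± 19.98 CPM in No KD (log2 fold change 0.19, adjusted p 0.536, edgeR). The inhibitor gene CDKN1C had 0.538 ± 0.218 CPM in MEP50 KD and 0.400 ± 0.0785 CPM in No KD (0.45, adjusted p 0.532). Of the 8 tested genes nearest to IGF2, 0 were called in edgeR, DESeq2, limma-voom or the block fit. None of the 8 had an unadjusted p under 0.05. Over all genes 7.6% were called in edgeR and 26.1% in the block fit, and 5219 of 21101 had an unadjusted p under 0.05.

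PEG10 and PLAGL1 were low and were not called in any fit. PEG10, a gene derived from a retrotransposon and needed for the placenta, had 1.87, 0.865 and 0.504 CPM in MEP50 KD and 1.55, 1.499 and 0.913 CPM in No KD. MEP50 KD replicate 1 was the highest of the 6 and replicate 3 the lowest, and the groups overlapped. Its log2 fold change of -0.32 (SE 0.45, adjusted p 0.712, edgeR) ranged from -0.91 without MEP50 KD replicate 1 to 0.01 without MEP50 KD replicate 3. SGCE, which shares the promoter region of PEG10, had 1, 8 and 3 reads in MEP50 KD and 4, 5 and 4 in No KD. PLAGL1 encodes a zinc finger factor that controls a network of imprinted genes in mouse. It had 1.98, 2.05 and 1.65 CPM in MEP50 KD and 1.75, 1.30 and 1.48 CPM in No KD (log2 fold change 0.33, SE 0.25, adjusted p 0.45). All 3 pairs were positive, from 0.14 to 0.62, but the groups overlapped. Its relative PLAGL2 had 23.4 ± 6.15 CPM in MEP50 KD and 16.6 ± 6.84 CPM in No KD (0.50, adjusted p 0.339, and 0.0326 with the block).

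A list of 90 other genes reported as imprinted had 87 in the table and 56 with enough reads. The list does not separate them by species or tissue, and whether they are imprinted in these cells was not measured. Of the 56, 4 were called lower and 0 higher in edgeR, beside 4.88% lower and 2.72% higher of all tested genes. The median log2 fold change of the 56 was 0.02. With the pairs as a block 9 were lower and 2 higher (14.9% and 11.2% of all genes). At an unadjusted p under 0.05 the counts were also 9 and 2 (3025 and 2194 of all 21101 genes). They were 6 and 0 in DESeq2 (1440 and 898) and 4 and 0 in limma-voom (1050 and 593). The 4 called lower in edgeR were MIMT1, ZIM2-AS1, PWAR5 and NLRP2. NLRP2, a gene of the innate immune NLR family on the same chromosome arm as PEG3, had 57.8, 58.7 and 49.7 CPM in MEP50 KD and 88.5, 81.6 and 80.5 CPM in No KD. NLRP2 fell by a log2 of 0.59 (SE 0.12, adjusted p 0.0232). Its call was lost without MEP50 KD replicate 2 (0.0773) or 3 (0.0947) or No KD replicate 1 (0.0877) or 3 (0.0573).

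The 5 genes of that list with the highest RPKM, averaged over all 6 libraries, were not called, while PWAR5 came next with 31.1 RPKM in MEP50 KD and 44.4 in No KD. The 5 were the cation transporter gene SLC22A3 (112 RPKM in MEP50 KD, 145 in No KD), IGF2R, the receptor that clears IGF2 (70.0 in MEP50 KD, 75.3 in No KD), DDC (46.3 in MEP50 KD, 48.4 in No KD), HERC3 (44.1 in MEP50 KD, 40.2 in No KD) and the G protein gene GNAS (37.8 in MEP50 KD, 42.0 in No KD). SLC22A3 had a log2 fold change of -0.38 (adjusted p 0.129, edgeR) and passed with the block (0.0377). IGF2R had one of -0.11, GNAS of -0.15 and HERC3 of 0.13. Of 16 genes of an imprinted gene network known from mouse, 10 had enough reads. Those outside the members were CDKN1C, IGF2R, GNAS and GATM (log2 fold change -0.03, adjusted p 0.98). None of them was called in edgeR or in the block fit, beside 7.6% and 26.1% of all genes.

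**Figure D4:**
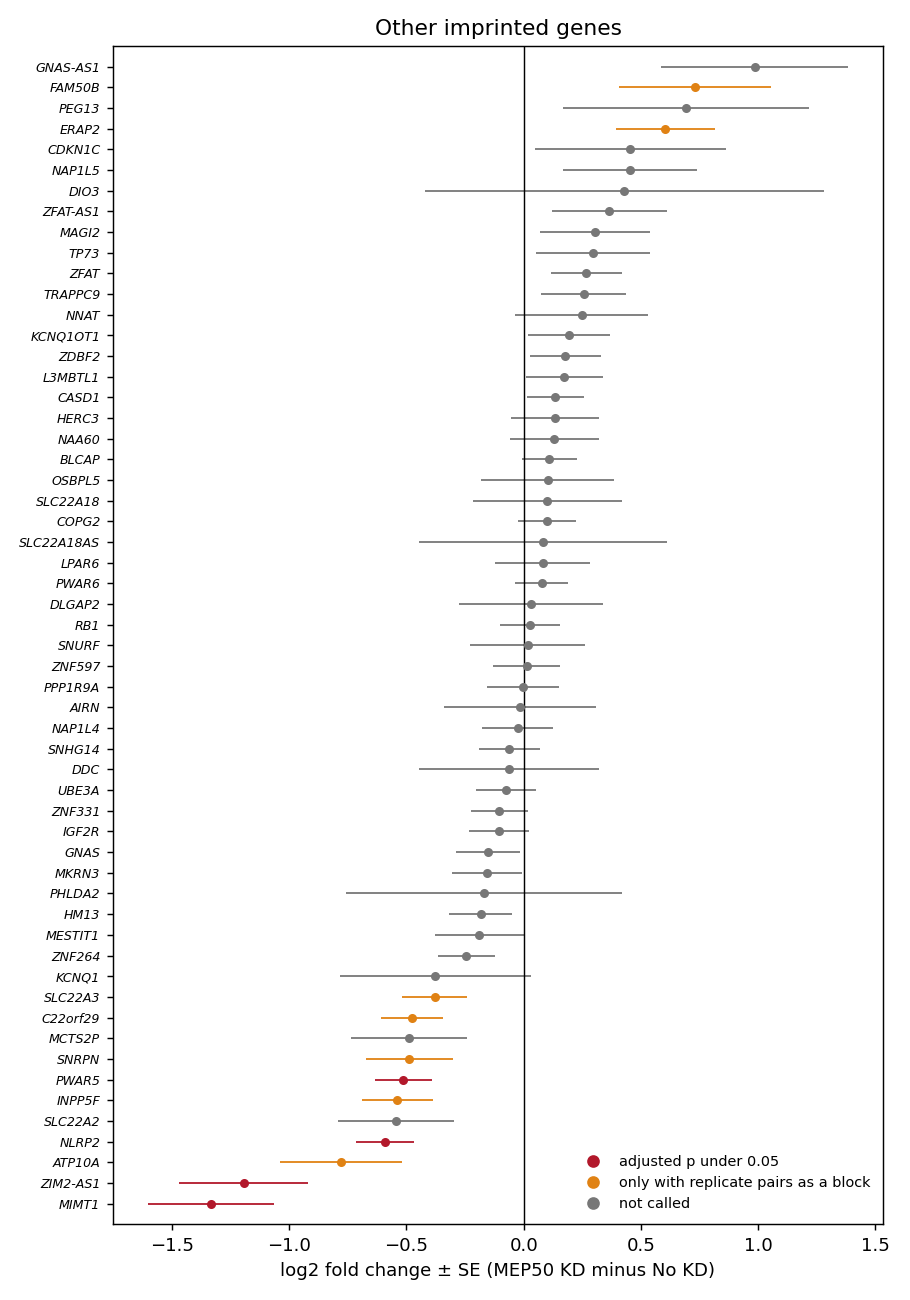
Log2 fold change of MEP50 KD minus No KD with SE (x axis) for the 56 tested non-member genes listed as imprinted (y axis, sorted). The 4 red points were called, the 7 orange ones passed in the paired fit alone, and the values run from -1.33 to 0.98.

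Among factors reported to set or keep imprints, 1 was called lower. DNMT1, the maintenance DNA methyltransferase, had 124, 101 and 94.3 CPM in MEP50 KD and 197, 234 and 145 CPM in No KD, and fell by a log2 of 0.85 (SE 0.19, adjusted p 0.0288, edgeR). Its call was lost without MEP50 KD replicate 2 (0.118) or 3 (0.0947) or No KD replicate 1 (0.0676) or 2 (0.0531). It was the 1 gene called lower among 13 tested of 19 such factors (7.69%, against 4.88% of all genes), and 0 were called higher. With the block 4 were lower and 2 higher (14.9% and 11.2% of all genes). At an unadjusted p under 0.05 the counts were 3 and 1 (3025 and 2194 of all 21101 genes). They were 2 and 0 in DESeq2 (1440 and 898) and 1 and 0 in limma-voom (1050 and 593). UHRF1, which brings DNMT1 to replicated DNA, had 18.0 ± 5.96 CPM in MEP50 KD and 33.6 ± 11.6 CPM in No KD (-0.90, adjusted p 0.103, and 0.000866 with the block). TRIM28, the corepressor recruited to imprints by zinc finger proteins, had 291 ± 21.4 CPM in MEP50 KD and 369 ± 62.0 CPM in No KD (-0.34, adjusted p 0.193, and 0.0425 with the block). ZNF445, one of those zinc finger proteins, had 83.4 ± 18.1 CPM in MEP50 KD and 67.4 ± 8.91 CPM in No KD (0.31, adjusted p 0.324, and 0.0489 with the block).

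Among family relatives of the members, RGAG4 rose. RGAG4, named RTL5 in RefSeq and derived from a retrotransposon like PEG10, had 9.80, 8.43 and 8.84 CPM in MEP50 KD and 3.69, 3.96 and 4.62 CPM in No KD. It rose by a log2 of 1.14 (SE 0.19, adjusted p 0.00946, edgeR) and was called whichever library was left out. It was the 1 higher call among 15 tested of 23 relatives (6.67%, against 2.72% of all genes), and 0 were lower. With the block 4 were higher and 2 lower (11.2% and 14.9% of all genes). At an unadjusted p under 0.05 3 were higher and 2 lower (2194 and 3025 of all 21101 genes). DESeq2 and limma-voom each called 1 higher and 0 lower (898 and 1440 of all genes in DESeq2, 593 and 1050 in limma-voom). Of 5 proteins reported to act with PEG3, BAX, a cell death gene that p53 induces, rose (55.6 ± 6.51 CPM in MEP50 KD and 29.8 ± 2.26 CPM in No KD, log2 fold change 0.90, SE 0.14, adjusted p 0.00773, edgeR). SIAH1 (0.23), SIAH2 (0.06), TRAF2 (-0.33) and CTNNB1 (0.02) were not called. Thus 1 of the 5 was called higher and 0 lower, beside 2.72% higher and 4.88% lower of all tested genes.

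The genes with the pattern most like that of PEG3 over the 6 libraries, by Pearson correlation of log2 CPM among 16810 genes of at least 1 CPM, were the ETS factor gene ETV1 (0.996), NDFIP1 (0.994), FAM105A (0.993), MME-AS1 (0.992) and AAMP (0.992). ZIM2 had 0.981, MEST 0.842, PEG10 0.652, PLAGL1 -0.447, NDN -0.741 and GRB10 -0.781. These values describe 6 libraries that fall into 2 groups and 3 pairs, so they hold the group difference and any shared deviation of a pair. They do not measure the size of a fall. The log2 fold changes were -1.28 for ETV1, -0.36 for NDFIP1, -1.78 for FAM105A, -0.93 for MME-AS1 and -0.43 for AAMP, against -1.27 for PEG3.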

How the data were processed

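The authors deposited whole-number read counts per gene for 6 libraries. Per the submitters' processing notes, reads were aligned with STAR 2.5 to hg38 and counted with featureCounts of Subread 1.6.5, and bcl2fastq and edgeR 3.20.8 were also used. The annotation release, strand setting and treatment of shared exons are not given in the sources used here. All counts were on named genes. The deposited table also gives each gene's exon length, from which RPKM was computed here.

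Knockdown was compared with control with edgeR 4.0.16 in R 4.3.3 (TMM scaling, filterByExpr with a minimum count of 10, quasi-likelihood F test, two-sided), with Benjamini-Hochberg adjustment over all 21101 tested genes and a threshold of 0.05. The SE is the log2 fold change divided by the root of the F statistic. CPM uses TMM-scaled totals. Alternatives used DESeq2 1.42.0, limma-voom 3.58.1, other scalings, no filter, and 1 library left out. The main edgeR fit, the block fit, DESeq2 and limma-voom were run on simulated data first, which held no difference between replicate pairs. The other alternatives were not run on simulated data.

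The titles number replicates 1 to 3 in both groups. Deviations from the group means correlated at 0.525, 0.363 and 0.335 for libraries of the same number and from -0.375 to 0.0586 for others, so the numbers were taken as pairs. The deviations of a group sum to 0 over its 3 libraries. Positive values for the same number therefore pull the others down, and the contrast is partly arithmetic. The block fit was chosen from these same data and has 2 residual degrees of freedom, against 4 in the main fit. The design text calls the replicates biological, with no more on their source.

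Members and lists were chosen with earlier results of these data known. The text names all members, the called genes of each list (the 2 smallest p where none), the 5 most abundant of the imprinted list, called genes and the 3 nearest within 500 kb of PEG3, and the 5 genes most like PEG3. Other named genes, such as the neighbours of each member and block-fit calls, were chosen after their values were seen. Some markers of the cell line are not reported here.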

Additional observations from a re-analysis of the deposited data

How the results depend on the processing

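The pairing by replicate number changed more calls than any scaling did. Members other than PEG3 called lower were 1 in the main test and 2 with the replicate pairs as a block, in DESeq2, in limma-voom and with no filter on low counts. Those called higher were 1, and 2 with the block or with no filter. Other imprinted genes called lower were 4, and 9 with the block, and those called higher were 0, and 2 with the block. The calls over all genes moved too. Of 21101 tested genes the main test called 1029 lower and 574 higher, and the block fit 3148 and 2358. DESeq2 called 1440 lower and 898 higher, and limma-voom 1050 and 593. With no filter 1812 were lower and 1336 higher of 41091 genes. With 1 library left out and no block, the counts ran from 0 to 2 for members called lower, were 0 for members called higher in all 6 fits, and ran from 0 to 3 and from 0 to 1 for the other imprinted genes called lower and higher. Over all genes these 6 fits called 329 to 923 lower and 168 to 500 higher. Such fits have fewer libraries, and the calls of MEST, NDN, MIMT1 and ZIM2-AS1 each missed the threshold in at least 1 of them. RLE scaling, library totals alone and TMM without PEG3 and ZIM2 left all 4 counts of members and other imprinted genes as they were. They moved the median log2 fold change of all genes to 0.015, 0.09 and 0.00. PEG3 had log2 fold changes from -1.53 to -1.01 when 1 library was left out. MEST and NDN kept their direction in all 13 alternatives. IGF2, H19 and MEG3 are limited by depth. IGF2 also shares 1462 of its 6259 exon bases with other genes, and how reads there were counted is not given.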
